A study of Mus musculus with 14 samples.

Results

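Complement and coagulation are the chains of blood proteases, cofactors and inhibitors that hepatocytes make and secrete. Livers of mice on 3 diets were compared here for 40 such genes, which were taken by symbol from a list of the 2 systems that was drawn up with earlier results of these data known. All 40 were found among the 55427 genes of the deposited table, and 40 of 40 passed the filter on low values that left 12110 genes for testing. By role, 4 belong to the lectin pathway, 5 form the C3 convertases, 6 form the terminal pathway, 3 restrain complement, 5 belong to the contact and kinin system, 5 generate thrombin, 4 form fibrin, 4 are anticoagulants and 4 act in fibrinolysis.

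The study compared mouse livers to learn how advanced glycation end products (AGEs) in the diet act on the liver. RNA of whole liver was sequenced after 14 weeks of feeding. The groups were 3 mice labelled RageHepKO on the high-AGE diet (HiAD), with the genotype RAGE flox/Alb cre, 2 RAGE flox mice on the HiAD injected with pyridoxamine (PM), 3 RAGE flox mice on the HiAD, 3 RAGE flox mice on the fast-food diet (FFD) and 3 RAGE flox mice on chow. The HiAD is the FFD after cooking, both came with fructose in the drinking water, and PM, which blocks AGE formation, was given daily at 60 mg per kg from week 5. Per the study, the RAGE flox mice on the HiAD without PM received vehicle. Per the study's methods the mice were males of 8 to 10 weeks on a C57BL/6 background, and every group carries the floxed Ager allele. Albumin-Cre acts in hepatocytes, so that other liver cells keep the gene.

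Several features of the libraries stand before any result. Ager, the gene of RAGE, was at 0.198, 1.90 and 1.83 scaled FPKM (fragments per kilobase of exon and per number of mapped fragments, made comparable between libraries) in the libraries labelled RageHepKO, against 0.184, 0.0811 and 0.140 on the HiAD, which goes against the labels. In the other groups labelled RAGE flox it was at 2.75 and 2.49 with PM, 2.47 to 2.78 on the FFD and 0.801 to 2.15 on chow. The labels of the HiAD libraries are thus in doubt as well as those of RageHepKO. Directions drawn from either group rest on the labels alone. In HiAD livers H2-Bl was at most 0.0771 scaled FPKM, against at least 2.59 elsewhere, and H2-Q1 at least 10.8, against at most 3.66 elsewhere. Both lie on chromosome 17, as Ager does, and diet and mouse lineage cannot be told apart. The HiAD libraries bear the letter B in their names and the others R or RA, and the sources used here do not say what the letters stand for. Mitochondrial genes took 24.3 to 53.1% of all FPKM in the libraries labelled RageHepKO (highest in RA19), 14.5 to 16.8% with PM, 14.1 to 22.1% on the HiAD, 6.06 to 10.1% on the FFD and 13.1 to 24.1% on chow. The mitochondrial gene mt-Tg was at 431 to 1373 scaled FPKM in the libraries labelled RageHepKO and 69.0 to 133.8 on the HiAD. It was at most 0.837 with PM, 0.308 on the FFD and 0.494 on chow. What set those 2 groups apart in mt-Tg, and its part in the results below, was not tested. Chow library R2 stood apart in most of the 40 genes and is described by itself. All 14 libraries had Xist at 0.0707 scaled FPKM or less and Ddx3y at 10.3 or more, as male livers do. No source states whether mice of a group shared a cage or litter, and the p-values measure the spread between these mice. Read depth is unknown, because the table holds no counts.

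As background, complement is set off when lectins or antibodies bind a surface, when proteases then assemble a C3 convertase, or when C3 activates by itself. C3b marks the surface, C5 is cleaved, and C5b gathers C6, C7, C8 and C9 into a pore, the membrane attack complex. Coagulation runs from the contact factors and tissue factor through factors IX, X and V to thrombin, which turns fibrinogen into fibrin, and protein C, antithrombin and plasmin hold it back. The liver is the main source of most of these proteins, and interleukin-6 raises fibrinogen and several complement genes there in the acute phase. In mice the terminal components are known to be made in larger amounts by males than by females.

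All calls among the 40 genes in HiAD livers against FFD or chow were toward lower values. Against the FFD, 5 of 40 were lower and 0 higher at a limma adjusted p under 0.05, where 1.45% of all tested genes were lower and 1.66% higher, and against chow 6 were lower and 0 higher, where 1.82% of all tested genes were lower, 2.81% higher and 4.62% called in either direction. With PM, 7 were higher and 0 lower than on the HiAD, where 3.31% of all tested genes were higher, 3.14% lower and 6.45% called in either direction. In the libraries labelled RageHepKO, 16 were higher and 2 lower than on the HiAD, where 15.7% of all tested genes were higher and 17.7% lower. On the FFD against chow 0 of 40 passed in either direction, where 0.00826% of all tested genes were higher, 0.0578% lower and 0.0661% called in either direction by limma. The 4 comparisons with HiAD livers share those 3 libraries, so that a low value there enters each of them, and they are not independent.

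The median difference of the 40 genes was 0.36 in the libraries labelled RageHepKO minus HiAD, 0.44 in PM minus HiAD, -0.30 in HiAD minus FFD and -0.55 in HiAD minus chow, on the scale of log2(scaled FPKM + 1). Over all 12110 tested genes the medians of these comparisons were -0.00067, 0.0081, 0.02 and -0.018. Libraries of 2 groups often did not overlap. In the libraries labelled RageHepKO 18 of the 40 genes lay above and 8 below all HiAD libraries, against 20.3% and 23.7% of all tested genes, and with PM 25 lay above and 2 below, against 26.0% and 24.0%. In HiAD livers 1 lay above and 16 below all FFD libraries, against 16.7% and 14.0% of all tested genes, and 0 above and 13 below all chow libraries, against 13.2% and 12.4%. On the FFD 1 lay above and 3 below all chow libraries, against 8.15% and 9.79%. Differences within 0.5 of 0 on that scale were found for 15 of the 40 genes in the libraries labelled RageHepKO, for 20 with PM, for 24 in HiAD against FFD and for 20 in HiAD against chow. In 21 of the 40 genes no test of these comparisons, nor FFD against chow, passed the threshold. The shares of all tested genes within 0.5 of 0, or passing in no comparison, were not counted. These counts therefore do not set the 40 genes apart from other genes. Scaling mattered for the libraries labelled RageHepKO. On FPKM as deposited 8 of the 40 genes were higher and 4 lower than on the HiAD, where 7.88% of all tested genes were higher and 27.9% lower. The median of the 40 genes was then 0.03 and that of all tested genes had moved by -0.26. When libraries were scaled to their sum without mitochondrial genes, 9 were higher and 6 lower, where 7.68% of all tested genes were higher and 30.8% lower. The median of the 40 genes then turned to -0.02 and that of all tested genes had moved by -0.30. Without HiAD library B2 the calls in the libraries labelled RageHepKO numbered 11. Over all tested genes 1355 were then higher and 1601 lower, against 1900 and 2144 in the main fit. Without HiAD B3 the calls against chow numbered 3, where 128 of all tested genes were higher and 88 lower (main fit 340 and 220). Without chow R2 the calls against FFD numbered 8, where 308 of all tested genes were higher and 249 lower (main fit 201 and 175). Fits without PM library R18 or R19 leave no replicate with PM, so counts of their calls are not given.

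**Figure D1:**
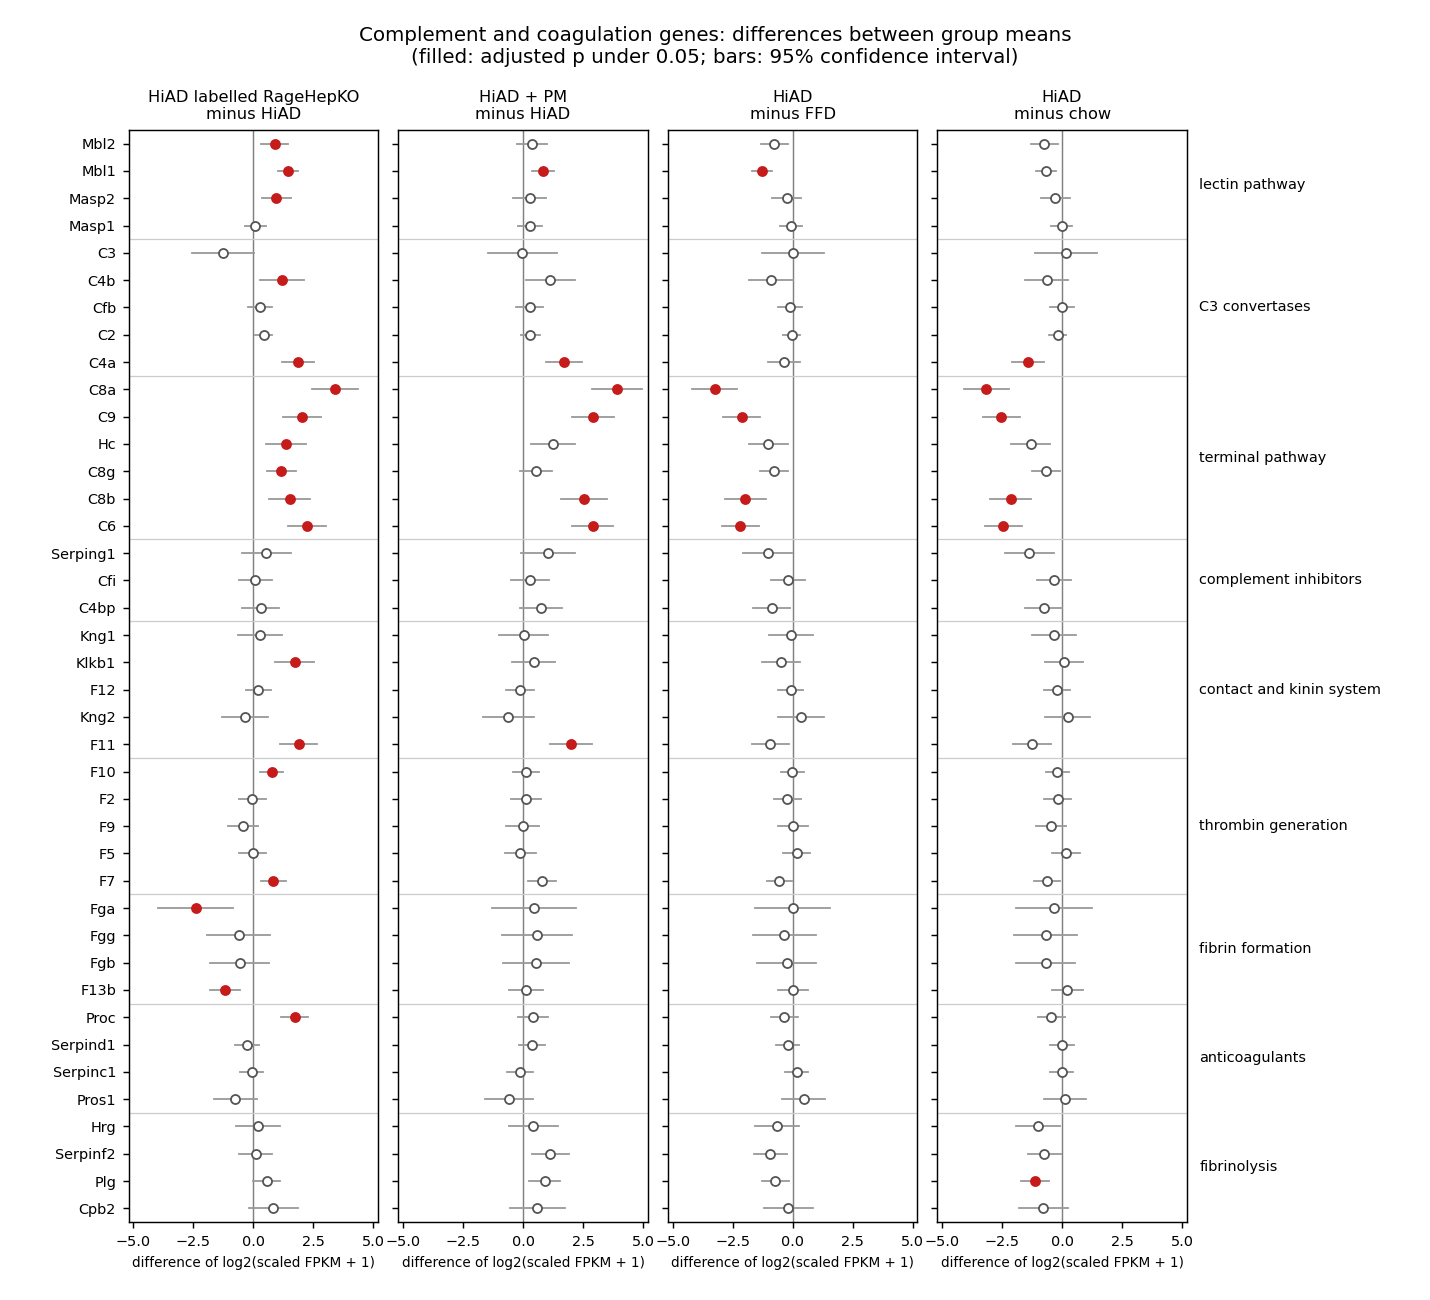
Differences between group means on the log2(scaled FPKM + 1) scale for the 40 genes, grouped by role, in 4 comparisons. Points are the limma estimates, filled where the adjusted p was under 0.05, and bars are 95% confidence intervals. C6, C8a, C8b and C9 are filled in all 4 panels, to the right of 0 in the 2 left panels and to the left of 0 in the 2 right panels.

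C6, C8a, C8b and C9 were lower in HiAD livers than on the FFD and on chow, and higher with PM and in the libraries labelled RageHepKO than on the HiAD. C8a and C8b encode the alpha and beta chains of C8, which insert into the membrane, C6 is the first protein to join C5b, and C9 polymerises into the pore. C8a and C8b lie side by side on chromosome 4, 11.1 kb apart, at 104815679-104876398 and 104766317-104804548 (GRCm38). C6 and C9 lie on chromosome 15, at 4727175-4814967 and 6445327-6498751.

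C8a was at 245, 242 and 246 scaled FPKM in the libraries labelled RageHepKO, 389.8 and 313 with PM and 22.9, 47.9 and 9.81 on the HiAD, against 206, 325 and 159 on the FFD and 180.1, 267 and 186 on chow. All HiAD libraries, at 47.9 or less, lay below all others, at 158.7 or more. The HiAD mean was 0.117 of the FFD mean (log2 difference -3.25 ± 0.43 SE, limma adjusted p = 0.0018) and 0.127 of the chow mean (log2 difference -3.16 ± 0.43 SE, limma adjusted p = 0.0016). With PM the mean was 13.1 times that on the HiAD (log2 difference 3.91 ± 0.49 SE, limma adjusted p = 0.00062), and in the libraries labelled RageHepKO 9.101 times (log2 difference 3.40 ± 0.43 SE, limma adjusted p = 0.0004). HiAD B2 had the highest and HiAD B3 the lowest C8a of their group. Because whole liver was sequenced, fewer hepatocytes and less RNA per hepatocyte cannot be told apart. Alb, the albumin gene of hepatocytes, was at 3014 to 4330 scaled FPKM in the libraries labelled RageHepKO, 4062 to 5409 with PM and 6760 to 7891 on the HiAD, against 3566 to 5104 on the FFD and 4006 to 9097 on chow.

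C9 was at 54.4, 112 and 79.7 scaled FPKM in the libraries labelled RageHepKO, 161 and 132 with PM and 17.7, 29.1 and 12.4 on the HiAD, against 94.6, 111 and 57.2 on the FFD and 81.9, 148 and 117 on chow. All HiAD libraries lay below all others in C9. On the HiAD, C9 fell to 0.225 of the FFD mean (log2 difference -2.12 ± 0.36 SE, limma adjusted p = 0.0072) and to 0.171 of the chow mean (log2 difference -2.53 ± 0.36 SE, limma adjusted p = 0.0019). It was higher with PM (log2 difference 2.90 ± 0.41 SE, limma adjusted p = 0.0014) and in the libraries labelled RageHepKO (log2 difference 2.02 ± 0.36 SE, limma adjusted p = 0.002).

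C6 was the least abundant of these genes, at 3.63, 10.3 and 8.31 scaled FPKM in the libraries labelled RageHepKO, 12.8 and 10.4 with PM and 0.238, 1.94 and 0.292 on the HiAD, against 5.45, 8.32 and 6.38 on the FFD and 7.67, 7.65 and 9.24 on chow. HiAD B1 and B3 lay below 1 and HiAD B2 near 2, and none reached the lowest value of the other groups, which was RA19. The HiAD mean was 0.122 of the FFD mean (log2 difference -2.19 ± 0.36 SE, limma adjusted p = 0.0052) and 0.1004 of the chow mean (log2 difference -2.45 ± 0.36 SE, limma adjusted p = 0.0022), and with the pseudocount of 1 the log2 differences understate the changes of so low a gene. C6 was also higher with PM (log2 difference 2.90 ± 0.40 SE, limma adjusted p = 0.0013) and in the libraries labelled RageHepKO (log2 difference 2.23 ± 0.36 SE, limma adjusted p = 0.0011). The call against chow was lost in the fit of chow and HiAD with a replicate block, which is described with the processing.

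C8b was at 13.8, 44.9 and 38.3 scaled FPKM in the libraries labelled RageHepKO, 59.7 and 59.5 with PM and 10.1, 14.4 and 5.78 on the HiAD, against 38.7, 50.6 and 32.4 on the FFD and 43.97, 57.01 and 37.2 on chow. The HiAD libraries did not overlap with PM, FFD or chow, but RA19 lay just below HiAD B2. C8b fell on the HiAD against the FFD (log2 difference -1.96 ± 0.40 SE, limma adjusted p = 0.019) and against chow (log2 difference -2.14 ± 0.40 SE, limma adjusted p = 0.0092), and rose with PM (log2 difference 2.53 ± 0.44 SE, limma adjusted p = 0.0053) and in the libraries labelled RageHepKO (log2 difference 1.51 ± 0.40 SE, limma adjusted p = 0.012). Without HiAD B3, C8b missed the threshold against FFD, against chow and in the libraries labelled RageHepKO, and without HiAD B1 or FFD R28 or R31, or with no filter, it missed it against FFD. The PM call was lost without PM R18 and without R19, and the call in the libraries labelled RageHepKO on FPKM as deposited and in a fit of the compared groups alone.

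Hc, the gene of C5, and C8g, the gene of the C8 gamma chain, which lies outside the pore, shifted less. Hc was at 43.3, 64.03 and 58.6 scaled FPKM in the libraries labelled RageHepKO, 55.8 and 45.98 with PM and 22.8, 17.2 and 22.3 on the HiAD, against 38.7, 60.01 and 33.4 on the FFD and 30.5, 108 and 44.4 on chow. All HiAD libraries lay below all others in Hc, but the tests passed only for the libraries labelled RageHepKO (log2 difference 1.36 ± 0.38 SE, limma adjusted p = 0.016), not for PM (log2 difference 1.26 ± 0.42 SE, limma adjusted p = 0.11), FFD (log2 difference -1.01 ± 0.38 SE, limma adjusted p = 0.19) or chow (log2 difference -1.32 ± 0.38 SE, limma adjusted p = 0.068). C8g was at 67.8, 58.9 and 47.1 scaled FPKM in the libraries labelled RageHepKO, 37.02 and 37.6 with PM and 29.03, 25.2 and 21.4 on the HiAD, against 56.01, 33.5 and 42.9 on the FFD and 57.7, 26.6 and 42.8 on chow. It too passed in the libraries labelled RageHepKO (log2 difference 1.16 ± 0.27 SE, limma adjusted p = 0.0075), and chow R2 overlapped with the HiAD libraries. The calls of Hc and C8g were both lost on FPKM as deposited and with the scaling without mitochondrial genes, and that of Hc also with no filter and without HiAD B2. The ratio of C8a to C8g, which no scaling of a library alters, was 3.61 to 5.21 in the libraries labelled RageHepKO, 8.33 and 10.5 with PM, 0.459 to 1.90 on the HiAD, 3.67 to 9.69 on the FFD and 3.12 to 10.02 on chow. C7, not among the 40 genes, lay at 0.482 scaled FPKM or less in all 14 libraries.

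**Figure D2:**
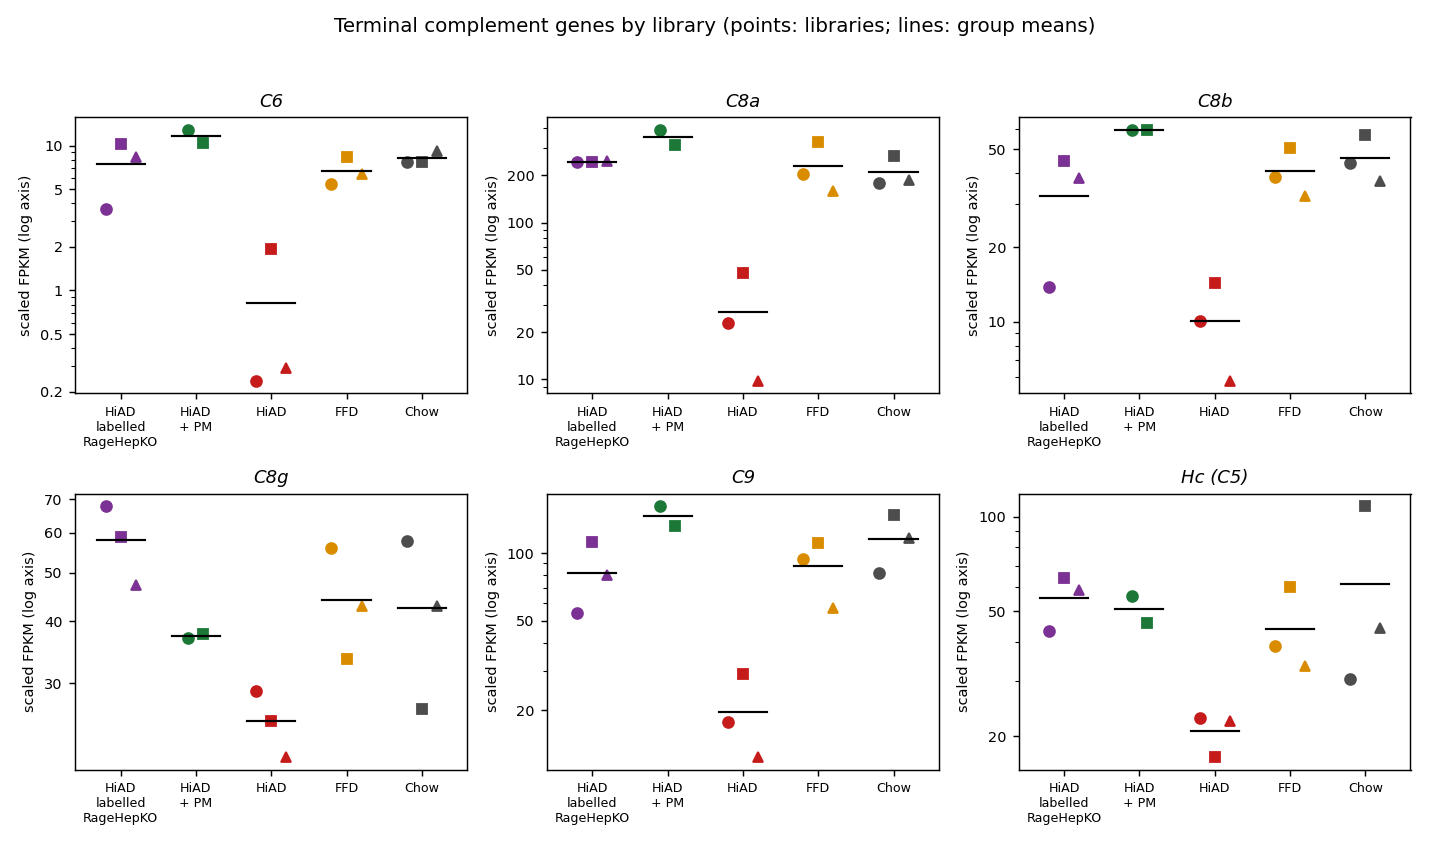
Scaled FPKM of 6 terminal complement genes in the 14 libraries, on log axes that differ between panels. Points are libraries (circle, square and triangle for the libraries of a group in the order of their names) and lines are group means. The 3 HiAD points of C8a, at 9.81 to 47.9, lie below all others, at 158.7 or more.

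Hsd3b5 and Cyp2b9, hepatic genes that differ between the sexes of mice, were looked at after these values had been seen. Hsd3b5, higher in males, was at 84.1 to 91.3 scaled FPKM in the libraries labelled RageHepKO, 327 and 368 with PM, 0 in all 3 HiAD libraries, 104 to 168 on the FFD, and 62.9, 5.61 and 56.8 on chow. Cyp2b9, higher in females, was at 14.0 to 55.1 scaled FPKM on the HiAD, against at most 1.55 in every other library. Their part in the fall of C6, C8a, C8b and C9 was not tested.

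To show the sequence in front of these genes, the 250 bases before the RefSeq start (GRCm38.p6, on the strand of the gene) are given for the genes of the terminal pathway that moved together. Capitals mark matches on either strand to any of 4 motifs, namely the core of an HNF1 site (GTTAAT), a C/EBP site (TTGCNNAA), a STAT site (TTCNNNGAA) and the type II interleukin-6 response element (CTGGGAA), named for factors of hepatocytes and of the acute phase.
C6, chr15:4726960-4727209, plus strand: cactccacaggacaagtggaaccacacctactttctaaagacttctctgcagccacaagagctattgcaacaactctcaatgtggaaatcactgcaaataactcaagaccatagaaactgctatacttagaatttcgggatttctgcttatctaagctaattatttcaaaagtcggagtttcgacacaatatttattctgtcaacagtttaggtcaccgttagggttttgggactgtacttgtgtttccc
C8a, chr4:104876399-104876648, minus strand: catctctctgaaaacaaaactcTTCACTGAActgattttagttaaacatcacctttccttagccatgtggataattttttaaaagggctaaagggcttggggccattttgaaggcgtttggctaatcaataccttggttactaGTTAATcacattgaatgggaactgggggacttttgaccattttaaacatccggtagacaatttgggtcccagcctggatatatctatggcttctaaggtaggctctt
C8b, chr4:104766067-104766316, plus strand: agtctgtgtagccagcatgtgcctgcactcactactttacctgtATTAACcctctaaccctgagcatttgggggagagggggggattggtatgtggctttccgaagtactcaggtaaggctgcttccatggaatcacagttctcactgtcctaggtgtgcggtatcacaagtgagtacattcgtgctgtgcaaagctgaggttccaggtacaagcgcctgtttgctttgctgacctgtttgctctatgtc
C9, chr15:6445096-6445345, plus strand: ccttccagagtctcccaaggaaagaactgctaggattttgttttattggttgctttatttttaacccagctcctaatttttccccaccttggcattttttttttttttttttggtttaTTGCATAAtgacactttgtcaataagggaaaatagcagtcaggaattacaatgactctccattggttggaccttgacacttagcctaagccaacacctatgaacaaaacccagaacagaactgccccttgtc
In C8a, the capitals are a STAT match 228 to 220 bases and an HNF1 match 107 to 102 bases before the start, in C8b an HNF1 match at 206 to 201, and in C9 a C/EBP match at 132 to 125, while C6 held none of the 4 motifs in this window. No motif was found in more than 2 of these 4 windows. Of 32851 windows of this length across the genome, 6.43% held the HNF1 core, 9.56% the C/EBP site, 7.02% the STAT site and 9.1% the interleukin-6 element. Of the 40 genes 30 had a window, of which 7, 9, 6 and 4 held them in the same order. A match is a string of letters and was not tested as a binding site.

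In the lectin pathway, Mbl1 and Mbl2 encode mannose-binding lectins, which recognise sugars on microbes, and Masp1 and Masp2 the proteases that travel with them. Mbl1 was lower on the HiAD than on the FFD and higher with PM and in the libraries labelled RageHepKO than on the HiAD. It was at 167, 197 and 228 scaled FPKM in the libraries labelled RageHepKO, 138 and 121 with PM and 72.2, 65.1 and 77.4 on the HiAD, against 151, 198 and 176 on the FFD and 111, 107 and 124 on chow. HiAD libraries lay below all others, close to each other. Mbl1 on the HiAD fell to 0.409 of the FFD mean (log2 difference -1.27 ± 0.19 SE, limma adjusted p = 0.0031), a call kept in 26 of 26 alternatives, while against chow Mbl1 did not pass (log2 difference -0.67 ± 0.19 SE, limma adjusted p = 0.064). It rose with PM (log2 difference 0.85 ± 0.21 SE, limma adjusted p = 0.032) and in the libraries labelled RageHepKO (log2 difference 1.44 ± 0.19 SE, limma adjusted p = 0.00044). The PM call was lost in 7 of 26 alternatives, among them each fit without a HiAD or a PM library.

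Mbl2 was at 274, 362 and 382 scaled FPKM in the libraries labelled RageHepKO, 197 and 285 with PM and 207, 174 and 164 on the HiAD, against 286, 331 and 304 on the FFD and 247, 252 and 438 on chow. HiAD libraries lay below those labelled RageHepKO and those of FFD and chow, and PM R18 lay within their range. Mbl2 rose in the libraries labelled RageHepKO (log2 difference 0.89 ± 0.26 SE, limma adjusted p = 0.02), with no call against FFD (log2 difference -0.76 ± 0.26 SE, limma adjusted p = 0.15) or chow (log2 difference -0.73 ± 0.26 SE, limma adjusted p = 0.13). Masp2 was at 117, 52.98 and 55.9 scaled FPKM in the libraries labelled RageHepKO, 41.01 and 46.7 with PM and 34.3, 28.7 and 47.7 on the HiAD, against 47.8, 41.2 and 39.4 on the FFD and 41.9, 45.4 and 44.7 on chow. RA19 lay far above the rest in Masp2, which passed in the libraries labelled RageHepKO (log2 difference 0.94 ± 0.28 SE, limma adjusted p = 0.022) although RA20 and RA21 lay only just above HiAD B3. Both calls were lost on FPKM as deposited and with the scaling without mitochondrial genes. Masp1 stayed between 7.73 and 13.1 scaled FPKM in all libraries and passed in none of the tests.

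**Figure D3:**
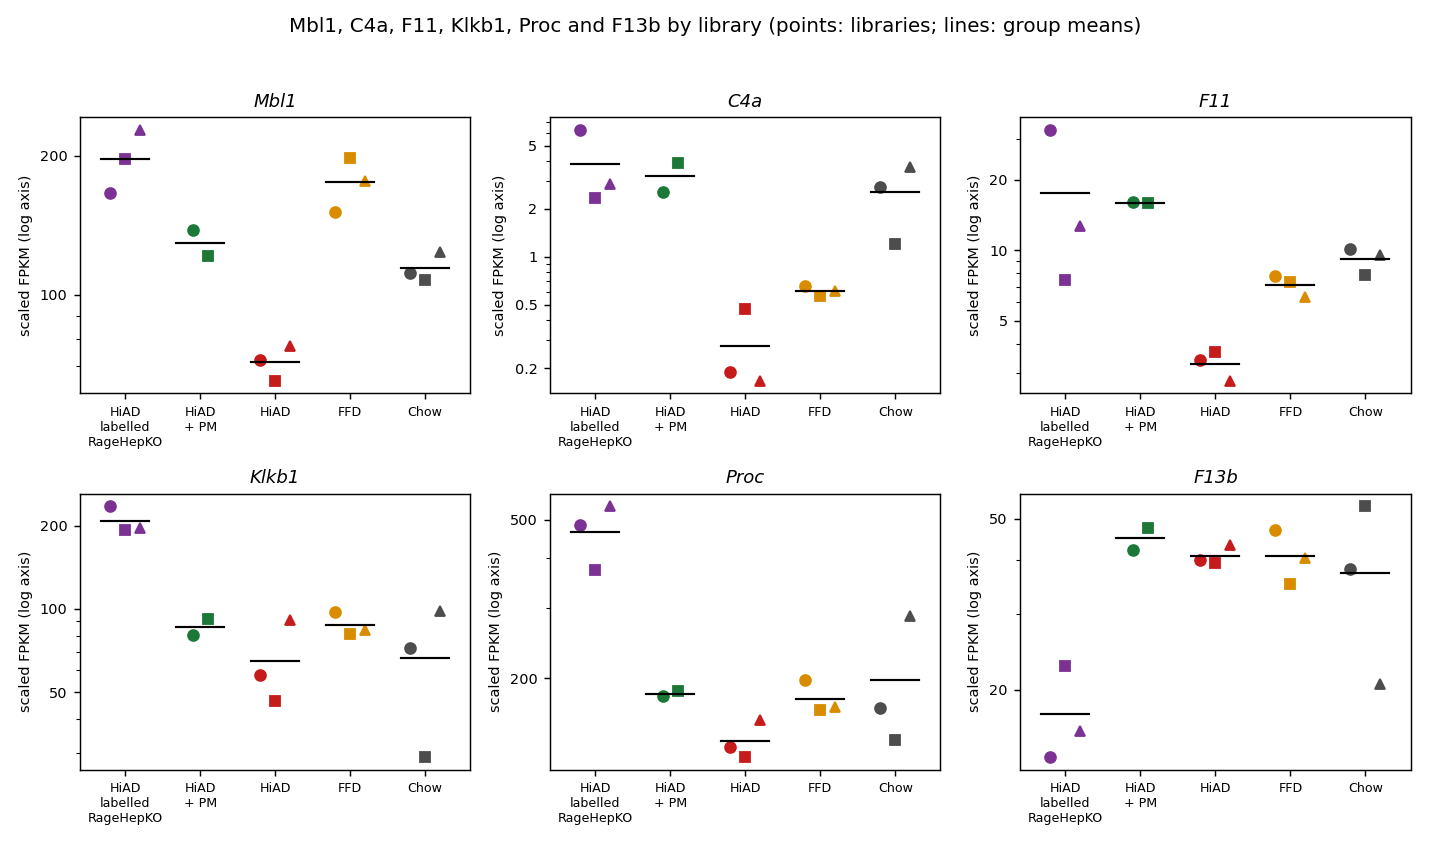
Scaled FPKM of Mbl1, C4a, F11, Klkb1, Proc and F13b in the 14 libraries, on log axes that differ between panels. Points are libraries (circle, square and triangle for the libraries of a group in the order of their names) and lines are group means. HiAD points are the lowest for Mbl1, C4a and F11, while Proc and F13b set the libraries labelled RageHepKO apart from HiAD, at 373.6 or more and at 22.8 or less.

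Among the genes of the C3 convertases, C4a was lower on the HiAD than on chow and higher with PM and in the libraries labelled RageHepKO than on the HiAD. C4a is the copy of C4 known in mice as sex-limited protein, and C4b is the C4 of the classical and lectin pathways. C4a depends on androgen in some strains of mice, and whether it does in the mice used here was not tested. C4a was at 6.26, 2.35 and 2.87 scaled FPKM in the libraries labelled RageHepKO, 2.56 and 3.896 with PM and 0.189, 0.467 and 0.166 on the HiAD, against 0.657, 0.564 and 0.606 on the FFD and 2.76, 1.203 and 3.67 on chow. HiAD libraries were the lowest, FFD libraries the next, and the 2 groups did not overlap with any of the others. Against chow C4a was lower on the HiAD (log2 difference -1.42 ± 0.31 SE, limma adjusted p = 0.021), and it was higher with PM (log2 difference 1.72 ± 0.34 SE, limma adjusted p = 0.011) and in the libraries labelled RageHepKO (log2 difference 1.84 ± 0.31 SE, limma adjusted p = 0.0014). On the FFD the mean was 0.2395 of that on chow without passing the test (log2 difference -1.07 ± 0.31 SE, limma adjusted p = 0.27). The call against chow was lost in 7 of 27 alternatives.

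C4b was at 118, 71.6 and 109 scaled FPKM in the libraries labelled RageHepKO, 105 and 83.7 with PM and 50.4, 37.4 and 39.9 on the HiAD, against 79.5, 117 and 53.8 on the FFD and 37.8, 142 and 55.4 on chow. HiAD libraries overlapped with chow R1 alone. C4b passed in the libraries labelled RageHepKO (log2 difference 1.19 ± 0.42 SE, limma adjusted p = 0.044), a call lost in 12 of 25 alternatives, and not against FFD (log2 difference -0.89 ± 0.42 SE, limma adjusted p = 0.31) or with PM (log2 difference 1.13 ± 0.47 SE, limma adjusted p = 0.19). The 2 genes are near-copies, with 35.2% of the 50-base words of one transcript found in the other, so that reads may have been split between them in either direction and both values are uncertain. C2, Cfb, C4a and C4b stand in 1 stretch of chromosome 17, 127 to 262 kb from Ager, on the chromosome that also holds H2-Bl and H2-Q1. The part of linked genes in the values of C4a was not tested.

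C3, the protein at which all routes meet, was at 61.4, 60.2 and 152 scaled FPKM in the libraries labelled RageHepKO, 201 and 194 with PM and 245, 161 and 207 on the HiAD, against 177, 287 and 158 on the FFD and 119.5, 591 and 82.3 on chow. The libraries labelled RageHepKO lay below HiAD without overlap, but the difference missed the threshold (log2 difference -1.28 ± 0.60 SE, limma adjusted p = 0.12). In the other comparisons with HiAD, C3 lay near 0, with -0.03 for PM, 0.01 against FFD and 0.16 against chow on the log2 scale. C2 (3.09 to 6.04 scaled FPKM) and Cfb (56.6 to 104.2), the protease subunits of the convertases, passed in no comparison.

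Of the complement inhibitors, none passed. Serping1, the gene of the C1 inhibitor, was at 163, 377 and 339 scaled FPKM in the libraries labelled RageHepKO, 429.5 and 362 with PM and 194, 229.6 and 151 on the HiAD, against 421, 506 and 277 on the FFD and 326, 1119.7 and 315 on chow. HiAD libraries lay below FFD and chow without overlap, and below PM, but the tests did not pass against FFD (log2 difference -1.04 ± 0.47 SE, limma adjusted p = 0.29), chow (log2 difference -1.36 ± 0.47 SE, limma adjusted p = 0.12) or with PM (log2 difference 1.06 ± 0.52 SE, limma adjusted p = 0.29). C4bp, which holds C4b in check, was at 40.8, 39.97 and 37.6 scaled FPKM in the libraries labelled RageHepKO, 55.5 and 52.9 with PM and 29.7, 39.8 and 27.1 on the HiAD, against 59.01, 70.4 and 49.7 on the FFD and 44.1, 114 and 32.2 on chow. HiAD libraries lay below those of PM and FFD and overlapped with the libraries labelled RageHepKO and with chow. The difference from FFD did not pass either (log2 difference -0.87 ± 0.36 SE, limma adjusted p = 0.24). Cfi, the protease that cuts C3b and C4b, ranged from 105.0 to 309.0 scaled FPKM.

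In the contact and kinin system, F11 encodes factor XI, which activates factor IX, Klkb1 prekallikrein, which frees bradykinin from the kininogens Kng1 and Kng2, and F12 factor XII. F11 was at 32.6, 7.44 and 12.7 scaled FPKM in the libraries labelled RageHepKO, 16.1 and 15.9 with PM and 3.39, 3.698 and 2.78 on the HiAD, against 7.79, 7.31 and 6.31 on the FFD and 10.1, 7.89 and 9.58 on chow. All HiAD libraries lay below all others in F11. It rose with PM to 4.86 times the HiAD mean (log2 difference 1.99 ± 0.40 SE, limma adjusted p = 0.012) and in the libraries labelled RageHepKO (log2 difference 1.88 ± 0.36 SE, limma adjusted p = 0.0027), where RA19 was the highest of all. Against FFD (log2 difference -0.93 ± 0.36 SE, limma adjusted p = 0.21) and chow (log2 difference -1.25 ± 0.36 SE, limma adjusted p = 0.07) F11 did not pass. Without PM R18 or R19 the PM call was lost.

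Klkb1, which lies 4.66 kb from F11 on chromosome 8, was at 235, 193 and 197 scaled FPKM in the libraries labelled RageHepKO, 80.7 and 91.5 with PM and 57.6, 46.6 and 90.9 on the HiAD, against 97.2, 81.2 and 83.9 on the FFD and 72.4, 29.1 and 98.5 on chow. The libraries labelled RageHepKO were the 3 highest of 14, and chow R2 was the lowest. Klkb1 passed in those libraries (log2 difference 1.71 ± 0.37 SE, limma adjusted p = 0.0047), while the PM difference was 0.45 on the log2 scale and did not pass. Kng2 was at 42.6, 41.4 and 40.2 scaled FPKM in the libraries labelled RageHepKO, 33.8 and 34.9 with PM and 64.7, 42.8 and 55.2 on the HiAD, against 43.6, 53.6 and 31.8 on the FFD and 29.8, 119.5 and 26.1 on chow. It was lower with PM than on the HiAD without overlap, and the test did not pass (log2 difference -0.63 ± 0.49 SE, limma adjusted p = 0.54). Kng1 (259.1 to 1070.0 scaled FPKM) and F12 (69.1 to 149.1) passed in no comparison. Of the 50-base words of the Kng1 transcript 17.95% occur in that of Kng2, so that values of both genes are uncertain.

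In thrombin generation, F7 and F10 were higher in the libraries labelled RageHepKO than on the HiAD, and F2, F5 and F9 passed in no comparison. F7, the partner of tissue factor, and F10, which cuts prothrombin, are neighbours on chromosome 8, 1.499 kb apart. F7 was at 55.3, 52.4 and 75.7 scaled FPKM in the libraries labelled RageHepKO, 59.2 and 60.1 with PM and 37.2, 31.01 and 33.4 on the HiAD, against 59.3, 58.2 and 35.96 on the FFD and 48.2, 69.7 and 43.97 on chow. Its HiAD libraries lay below those of PM and, except for FFD R32, well below FFD, and it passed in the libraries labelled RageHepKO (log2 difference 0.82 ± 0.24 SE, limma adjusted p = 0.022) but not with PM (log2 difference 0.80 ± 0.27 SE, limma adjusted p = 0.11). F10 was at 257, 277 and 295 scaled FPKM in the libraries labelled RageHepKO, 175 and 175 with PM and 149, 142 and 199.96 on the HiAD, against 176, 169 and 148 on the FFD and 151, 248 and 172 on chow. The libraries labelled RageHepKO were the 3 highest of 14 and did not overlap with HiAD. F10 was higher in the libraries labelled RageHepKO than on the HiAD (log2 difference 0.77 ± 0.22 SE, limma adjusted p = 0.019). The calls of F7 and F10 were lost on FPKM as deposited and with the scaling without mitochondrial genes. Prothrombin F2 ranged from 83.0 to 188.0 scaled FPKM, factor V (F5) from 42.5 to 86.7 and factor IX (F9) from 61.2 to 236.3, each highest in chow R2.

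In fibrin formation, Fga and F13b were lower in the libraries labelled RageHepKO than on the HiAD. Fga, Fgb and Fgg encode the 3 chains of fibrinogen, stand together on chromosome 3 and are usually made in step, and F13b encodes the carrier chain of factor XIII, which cross-links fibrin. Fga was at 156, 579.95 and 496 scaled FPKM in the libraries labelled RageHepKO, 2993 and 2225 with PM and 2063, 1749 and 1881 on the HiAD, against 1757, 2849 and 1335 on the FFD and 1589.5, 9646 and 899 on chow. The 3 libraries labelled RageHepKO were the lowest of 14, and chow R2 was the highest by far. Fga fell to 0.216 of the HiAD mean (log2 difference -2.41 ± 0.72 SE, limma adjusted p = 0.023), a call lost in 5 of 25 alternatives, among them without RA19 and without each HiAD library.

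Fgb was at 330.3, 555 and 586 scaled FPKM in the libraries labelled RageHepKO, 1147 and 916 with PM and 857, 615 and 679.7 on the HiAD, against 780.03, 1258 and 615 on the FFD and 631, 3717 and 625 on chow. Fgg was at 245, 696 and 617 scaled FPKM in the libraries labelled RageHepKO, 1213 and 985 with PM and 877, 649 and 677 on the HiAD, against 877, 1351 and 663 on the FFD and 759, 3767 and 564 on chow. The libraries labelled RageHepKO lay below HiAD without overlap in Fgb and overlapped with them in Fgg. Neither passed in the libraries labelled RageHepKO, with log2 difference -0.58 ± 0.57 SE, limma adjusted p = 0.46 for Fgb and log2 difference -0.62 ± 0.61 SE, limma adjusted p = 0.45 for Fgg. The ratio of Fga to Fgb was 0.472, 1.04 and 0.846 in the libraries labelled RageHepKO, against 2.41, 2.85 and 2.77 on the HiAD. It was 2.61 and 2.43 with PM, 2.25, 2.27 and 2.17 on the FFD, and 2.52, 2.60 and 1.44 on chow. The ratio does not depend on scaling, and no library of another group came down to the highest of those labelled RageHepKO. RA19, with the largest share of mitochondrial FPKM, had the lowest Fga and the lowest ratio, and the part of RNA quality in this was not tested. On the HiAD against FFD, Fga (0.01), Fgb (-0.25) and Fgg (-0.34) had small negative or no differences on the log2 scale and did not pass.

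**Figure D4:**
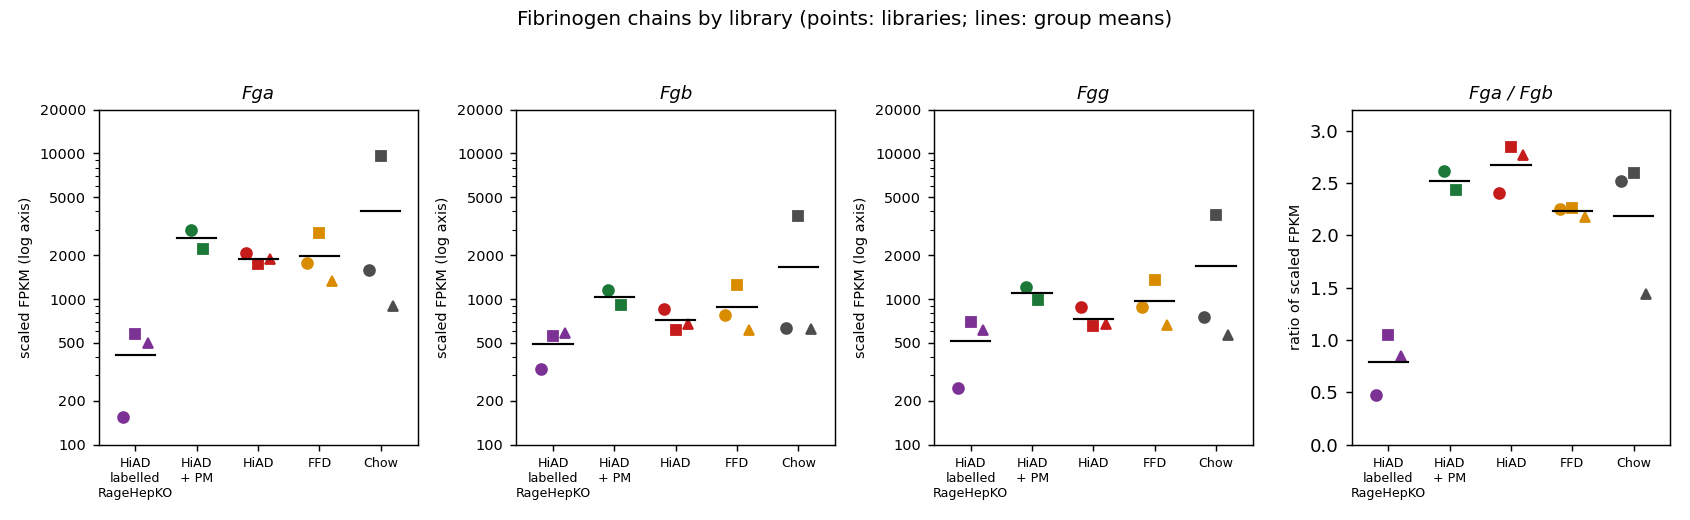
Scaled FPKM of Fga, Fgb and Fgg on 1 common log axis, and the ratio of Fga to Fgb on a linear axis, in the 14 libraries. Points are libraries (circle, square and triangle for the libraries of a group in the order of their names) and lines are group means. The ratio is at most 1.04 in the libraries labelled RageHepKO and at least 1.44 in all others.

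The 250 bases before the RefSeq start of the fibrinogen genes are given with the same capitals, since their transcripts parted in 1 group.
Fga, chr3:83025903-83026152, plus strand: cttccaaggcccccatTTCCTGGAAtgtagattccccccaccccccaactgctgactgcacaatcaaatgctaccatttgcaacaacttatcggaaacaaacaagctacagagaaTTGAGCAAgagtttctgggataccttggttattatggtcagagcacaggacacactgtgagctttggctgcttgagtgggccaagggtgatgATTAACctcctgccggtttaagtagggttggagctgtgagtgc
Fgb, chr3:83049864-83050113, minus strand: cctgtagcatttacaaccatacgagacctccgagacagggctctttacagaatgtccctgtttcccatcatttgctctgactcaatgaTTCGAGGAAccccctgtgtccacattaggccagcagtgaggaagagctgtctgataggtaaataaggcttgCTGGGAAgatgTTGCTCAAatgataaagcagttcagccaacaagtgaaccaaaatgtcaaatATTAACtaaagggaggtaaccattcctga
Fgg, chr3:83007474-83007723, plus strand: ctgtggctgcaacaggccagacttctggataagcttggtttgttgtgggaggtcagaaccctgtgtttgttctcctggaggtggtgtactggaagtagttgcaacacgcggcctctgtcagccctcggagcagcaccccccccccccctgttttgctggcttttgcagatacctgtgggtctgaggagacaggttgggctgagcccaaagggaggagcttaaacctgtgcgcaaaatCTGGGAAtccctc
Fga and Fgb each held an HNF1 match, at 43 to 38 and at 29 to 24 bases before the start, a C/EBP match, at 135 to 128 and at 80 to 73, and a STAT match, at 234 to 226 and at 162 to 154. Fgb held the interleukin-6 element at 91 to 85 and Fgg at 13 to 7. Fga, the chain that was lower in the libraries labelled RageHepKO, shared 3 motifs with Fgb and none with Fgg in these windows.

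F13b was at 13.9, 22.8 and 16.1 scaled FPKM in the libraries labelled RageHepKO, 42.3 and 47.7 with PM and 39.98, 39.4 and 43.4 on the HiAD, against 46.98, 35.2 and 40.5 on the FFD and 38.2, 53.4 and 20.6 on chow. It was lower in the libraries labelled RageHepKO than on the HiAD (log2 difference -1.20 ± 0.29 SE, limma adjusted p = 0.0084), and the call held in 25 of 25 alternatives. Chow R3 came within their range, and no library of PM, HiAD or FFD did.

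Among the anticoagulants, Proc encodes protein C, which cuts factors V and VIII with protein S (Pros1) as its cofactor, and Serpinc1 and Serpind1 encode antithrombin and heparin cofactor II. Proc was at 486, 374 and 540.4 scaled FPKM in the libraries labelled RageHepKO, 180.3 and 186 with PM and 135, 127 and 157 on the HiAD, against 198, 166 and 169 on the FFD and 169, 140.3 and 286 on chow. The libraries labelled RageHepKO were the 3 highest of 14, at 3.35 times the HiAD mean (log2 difference 1.73 ± 0.26 SE, limma adjusted p = 0.00081), and the call held in 25 of 25 alternatives. Pros1 was at 5.32, 9.86 and 10.96 scaled FPKM in the libraries labelled RageHepKO, 9.23 and 9.703 with PM and 13.99, 16.7 and 13.7 on the HiAD, against 9.89, 13.5 and 8.37 on the FFD and 7.84, 32.3 and 9.37 on chow. It lay lower in the libraries labelled RageHepKO (log2 difference -0.75 ± 0.41 SE, limma adjusted p = 0.18) and with PM (log2 difference -0.59 ± 0.46 SE, limma adjusted p = 0.54) than on the HiAD without overlap, and neither test passed. Serpinc1 (125.5 to 216.3 scaled FPKM) and Serpind1 (145.2 to 270.2) passed in no comparison.

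In fibrinolysis, Plg encodes plasminogen, Serpinf2 its inhibitor alpha-2-antiplasmin, Cpb2 the carboxypeptidase that shields fibrin, and Hrg histidine-rich glycoprotein. Plg was at 186, 157 and 141 scaled FPKM in the libraries labelled RageHepKO, 196 and 219.5 with PM and 135, 86.9 and 113 on the HiAD, against 179, 231 and 141 on the FFD and 172, 298 and 276 on chow. All HiAD libraries lay below all others in Plg. It was lower on the HiAD than on chow (log2 difference -1.13 ± 0.27 SE, limma adjusted p = 0.031), a call lost in 10 of 27 alternatives, and did not pass against FFD (log2 difference -0.71 ± 0.27 SE, limma adjusted p = 0.19) or with PM (log2 difference 0.91 ± 0.30 SE, limma adjusted p = 0.1). Serpinf2 was at 179, 187 and 229 scaled FPKM in the libraries labelled RageHepKO, 426 and 395 with PM and 216, 209 and 142 on the HiAD, against 372, 404 and 298 on the FFD and 268, 548 and 204 on chow. HiAD libraries lay below those of PM and FFD, without a call (PM: log2 difference 1.14 ± 0.36 SE, limma adjusted p = 0.086). Cpb2 was at 49.7, 112 and 61.4 scaled FPKM in the libraries labelled RageHepKO, 59.97 and 59.8 with PM and 38.6, 34.1 and 45.3 on the HiAD, against 47.7, 64.5 and 28.5 on the FFD and 39.5, 162 and 49.1 on chow. It was higher with PM and in the libraries labelled RageHepKO than on the HiAD without overlap, and neither passed, with limma adjusted p = 0.59 and 0.19. Hrg ranged from 278.1 to 1561 scaled FPKM and was highest in chow R2.

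The 40 genes together made up 0.610, 0.964 and 1.18% of summed FPKM in the libraries labelled RageHepKO, 2.82 and 2.51% with PM, 1.97, 1.62 and 1.64% on the HiAD, 2.11, 3.10 and 1.82% on the FFD and 1.66, 5.72 and 1.31% on chow. With mitochondrial genes left out of the sum, the share was 1.30 to 1.56% in the libraries labelled RageHepKO, against 1.92 to 2.30% on the HiAD. Fibrinogen took 0.0846 to 0.289% of summed FPKM in the libraries labelled RageHepKO and 0.799 to 1.01% on the HiAD. With both mitochondrial and fibrinogen genes left out, the other members took 1.11 to 1.18% in the libraries labelled RageHepKO, 1.58 and 1.65% with PM, 0.971 to 1.13% on the HiAD, 1.196 to 1.65% on the FFD and 1.123 to 2.24% on chow.

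Chow R2 set the width of the chow group. Its summed scaled FPKM over the 40 genes was 25960, against 6916 and 6464 in the other chow livers. In R2, 31 of the 40 genes were higher than in both other chow livers, 22 were at their highest of all 14 libraries, and 16 reached at least 2 times the mean of the other chow livers. Fga was 7.75 times that mean, Fgb 5.92 times and C3 5.85 times. The counts of 31, 22 and 16 were not made over all tested genes. Whether the 40 genes stood apart from other genes in R2 was therefore not tested. Mbl1, C4a, C6, C8g, F11, Klkb1 and Proc were lower in R2 than in both other chow livers. Acute phase genes stood high in the same library, with Saa1 at 1149 scaled FPKM, against 10.2 and 6.60 in chow R1 and R3, and Lcn2 at 164, against 1.118 and 1.28. FFD R31 was the next in Saa1, at 624 scaled FPKM, and had the highest C8a, Fga, Fgb and Fgg of its group. Neutrophil markers summed to 115.6 scaled FPKM at most on the FFD and to 68.3 at most on chow, and the part of an acute phase in these livers was not tested. With chow R2 and RA19 both left out, a choice made after the values were seen, the libraries labelled RageHepKO against HiAD had 19 higher and 2 lower of 40, where 17.2% of all tested genes were higher and 19.5% lower. HiAD against FFD had 0 higher and 11 lower, where 4.201% of all tested genes were higher and 3.55% lower, and HiAD against chow 2 higher and 10 lower, where 7.07% were higher and 6.13% lower, so that calls were more frequent over all genes too.

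**Figure D5:**
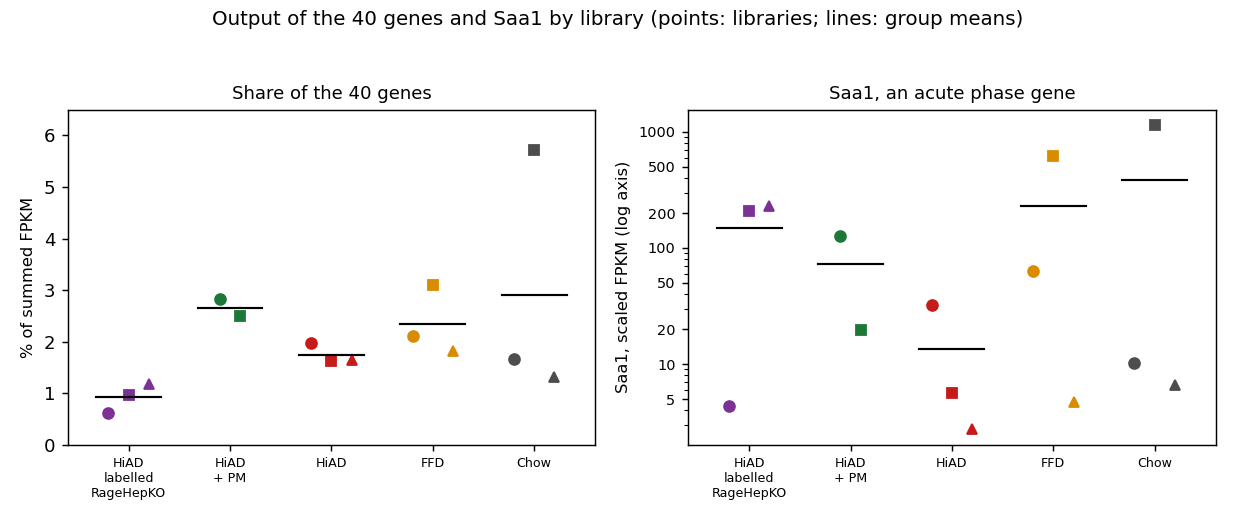
The share of the 40 genes in summed FPKM (left, linear axis) and Saa1 in scaled FPKM (right, log axis) in the 14 libraries. Points are libraries (circle, square and triangle for the libraries of a group in the order of their names) and lines are group means. Chow R2, the chow square, is the highest in both, at 5.72% and 1149.

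Whether HiAD livers with PM or labelled RageHepKO differed from FFD livers, or from each other, was asked after the values had been seen. With PM, 0 of 40 passed against FFD by limma in either direction, where 0.116% of all tested genes were higher and 0.0165% lower. An unadjusted limma p under 0.05 was found there for 2 of 40, C4a and F11, and for 1012 of all tested genes. Without overlap, 7 lay above and 2 below all FFD libraries, against 23.3% and 18.5% of all tested genes. The intervals stayed wide, since C8a differed from FFD by 0.67 (95% confidence interval -0.39 to 1.72) and C9 by 0.78 (-0.10 to 1.66) on the log2 scale. In the libraries labelled RageHepKO, 4 were higher than on the FFD (C4a, Klkb1, F10 and Proc) and 2 lower (Fga and F13b), where 9.92% of all tested genes were higher, 9.79% lower and 19.7% called in either direction. Without overlap, 6 lay above and 9 below all FFD libraries, against 17.5% and 20.2% of all tested genes. The terminal genes did not pass there, with C8a at 0.15 (-0.79 to 1.09) and C9 at -0.10 (-0.89 to 0.68). Between the libraries labelled RageHepKO and those with PM, 2 were higher (Klkb1, log2 difference 1.26 ± 0.41 SE, limma adjusted p = 0.0498, and Proc, log2 difference 1.33 ± 0.29 SE, limma adjusted p = 0.0088) and 2 lower (Fga, log2 difference -2.86 ± 0.81 SE, limma adjusted p = 0.029, and F13b, log2 difference -1.33 ± 0.32 SE, limma adjusted p = 0.015), where 8.35% of all tested genes were higher and 10.4% lower. The Klkb1 call was lost in 16 of 25 alternatives. Among them were FPKM as deposited, the scaling without mitochondrial genes and both other pseudocounts, but not scaling by the median of ratios. Against FFD, F10 was lost in 11 of 25 and Klkb1 in 9 of 25, with FPKM as deposited and the scaling without mitochondrial genes among them. Without chow R2 the 4 calls between RageHepKO and PM libraries became 8, where 22.8% of all tested genes were called, against 18.8% in the main fit. Fits without PM R18 or R19 leave no replicate with PM, so counts of their calls are not given. Without FFD R28 the libraries labelled RageHepKO had 2 calls against FFD, where 750 of all tested genes were higher and 767 lower. Without R31 they had 3, where 534 were higher and 560 lower, and without R32 3, where 547 were higher and 591 lower. In the main fit 1201 of all tested genes were higher and 1186 lower in that comparison.

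Between FFD and chow, 2 of the 40 genes had an unadjusted p under 0.05 by limma, as had 1218 of 12110 genes. These were Mbl1, higher on the FFD without overlap (log2 difference 0.61 ± 0.19 SE, limma adjusted p = 0.3), and C4a, lower (log2 difference -1.07 ± 0.31 SE, limma adjusted p = 0.27).

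Other genes of the same pathways were counted from lists that are not part of the 40. The shares of all tested genes against which these counts stand are 15.7% higher and 17.7% lower in the libraries labelled RageHepKO and 3.31% and 3.14% with PM, each against HiAD, and 1.66% and 1.45% on the HiAD against FFD and 2.81% and 1.82% against chow. Of 28 tested complement genes, 8 were higher and 0 lower in the libraries labelled RageHepKO than on the HiAD (median log2 difference 0.35), and 2 higher and 0 lower with PM (0.52). In HiAD livers 2 were lower and 0 higher against FFD (-0.48), as against chow (-0.39). Fcna, the gene of ficolin A, a lectin of macrophages, was at 56.5 ± 21.8 scaled FPKM in the libraries labelled RageHepKO (SD, n = 3), against 7.68 ± 0.713 on the HiAD (SD, n = 3; log2 difference 2.64 ± 0.31 SE, limma adjusted p = 0.00027), and it was lower on the HiAD than on the FFD (log2 difference -1.43 ± 0.31 SE, limma adjusted p = 0.026). Cfp, properdin, was lower on the HiAD than on the FFD (log2 difference -1.94 ± 0.40 SE, limma adjusted p = 0.02), and C1ra (log2 difference 0.87 ± 0.24 SE, limma adjusted p = 0.0452) and C1rl (log2 difference 0.77 ± 0.20 SE, limma adjusted p = 0.039) were higher with PM. Of 9 Kupffer cell and macrophage markers, 4 were higher and 0 lower in the libraries labelled RageHepKO than on the HiAD, 2 higher and 0 lower with PM, 0 higher and 3 lower on the HiAD against FFD, and 0 called on the HiAD against chow. Fcna, not among the 9, was lower on the HiAD than on chow too (log2 difference -1.46 ± 0.31 SE, limma adjusted p = 0.018). The markers summed to 137.4 to 364.0 scaled FPKM in the libraries labelled RageHepKO, 202.9 to 231.5 with PM, 84.9 to 142.6 on the HiAD, 206.5 to 871.2 on the FFD and 107.9 to 225.7 on chow, and the part of macrophage number in Fcna and Cfp was not tested.

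Of 21 other tested clotting genes, 2 were higher and 5 lower in the libraries labelled RageHepKO than on the HiAD, 3 higher and 2 lower with PM, and 2 higher and 1 lower on the HiAD against FFD, as against chow. Thbd, thrombomodulin of endothelium, was lower with PM (log2 difference -1.80 ± 0.31 SE, limma adjusted p = 0.0047) and in the libraries labelled RageHepKO (log2 difference -2.47 ± 0.27 SE, limma adjusted p = 0.00021) than on the HiAD, and higher on the HiAD than on the FFD (log2 difference 1.90 ± 0.27 SE, limma adjusted p = 0.0027). Serpine2, protease nexin 1, ran opposite to Thbd, higher with PM (log2 difference 2.21 ± 0.33 SE, limma adjusted p = 0.0022) and lower on the HiAD than on the FFD (log2 difference -1.79 ± 0.30 SE, limma adjusted p = 0.0059). Endothelial markers (6 genes) summed to 27.9 to 42.5 scaled FPKM in the libraries labelled RageHepKO, 16.5 to 20.7 with PM, 25.7 to 40.3 on the HiAD, 19.5 to 33.9 on the FFD and 31.5 to 35.4 on chow. Their part in Thbd was not tested. Stellate markers (7 genes) summed to 41.9 to 55.0 on the HiAD, against 16.9 to 36.3 elsewhere.

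As a comparison, 26 other secreted hepatocyte proteins were counted. On the HiAD 1 was higher and 1 lower than on the FFD, 1 higher and 0 lower than on chow, and with PM 1 was higher and 2 lower than on the HiAD, with median log2 differences of -0.028, -0.23 and -0.024. In the libraries labelled RageHepKO 8 were higher and 3 lower than on the HiAD (median 0.57), where 15.7% of all tested genes were higher and 17.7% lower. The 7 hepatocyte markers summed to 28365 to 38095 scaled FPKM in the libraries labelled RageHepKO, 18645 to 20249 with PM, 26165 to 29266 on the HiAD, 17305 to 24221 on the FFD and 24651 to 33107 on chow. Apoa1 is the largest part of that sum in every library. Of the 7 markers 1 was higher (Ttr) and 4 lower in the libraries labelled RageHepKO than on the HiAD, with a median log2 difference of -1.01, among them Cps1 (log2 difference -2.57 ± 0.55 SE, limma adjusted p = 0.0046) and Cyp3a11 (log2 difference -2.55 ± 0.60 SE, limma adjusted p = 0.0075). On the HiAD 1 was higher and 0 lower against FFD, and with PM 0 higher and 1 lower than on the HiAD, Cyp3a11 each time. Cyp3a11 averaged 784 scaled FPKM on the HiAD, against 142 in the libraries labelled RageHepKO, 71.4 on the FFD and 61.6 with PM. Its low call in the libraries labelled RageHepKO thus goes with a high value on the HiAD. Cholangiocyte markers (5 genes, of which 3 were tested) summed to 91.0 to 145.4 scaled FPKM on the HiAD, against 15.3 to 36.3 elsewhere. Of the 3, 0 were higher and 3 lower in the libraries labelled RageHepKO than on the HiAD, 0 higher and 2 lower with PM, and 2 higher and 0 lower on the HiAD against FFD, as against chow. Their part in the low terminal genes was not tested.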

How the data were processed

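RNA of 14 mouse livers was sequenced by the authors as paired reads, mapped to GRCm38 with GENCODE M18 genes and counted after filtering on molecular identifiers, and they tested it with limma on voom values with sample weights. The deposited table is named for raw counts, but its values are not whole. Multiplied by exon length in kb they sum to 901084 to 993318 per library, so the deposited values were treated as FPKM, and read depth is unknown. The series table had 55583 entries, and 55427 genes remained once 27 date-like names and 129 repeats of identical rows had been dropped.

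For scaling, log ratios to the mean library were averaged after trimming 30% from each end, over 6522 genes at 1 FPKM or more in every library. Genes at 1 scaled FPKM or more in 2 or more libraries were tested (12110) on log2(scaled FPKM + 1), with the 5 groups in 1 fit of limma 3.58.1 in R 4.3.3 (trend and robust), and p-values were adjusted by Benjamini and Hochberg over all tested genes of a comparison, with a threshold of 0.05. A fold on this scale understates the change of low genes. Tables and figures were made with Python 3.11.15, pandas 2.3.3, numpy 2.4.6 and matplotlib 3.10.9, and the fit was tested on simulated data. Promoters are RefSeq windows of GRCm38.p6.

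The 40 genes, the other lists and the tests were chosen with earlier results of these data known. All 40 are named by role, and those called, or without overlap between groups and with a log2 difference over 0.5 in size, have their values given in every library. Of other lists, up to 4 called genes a list and comparison, by smallest p, could be named. Alternatives covered the filter, pseudocount, scaling, groups in the fit, weights, a replicate block and each library left out. Comparisons of PM or RageHepKO libraries with FFD or with each other, and the fit without RA19 and chow R2, were chosen after seeing the data. Deposited sample labels gave the groups.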

Additional observations from a re-analysis of the deposited data

How the results depend on the processing

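No called difference of the 40 genes changed sign under the alternatives run, but medians over the 40 genes did. Genes named from the other lists were not followed through the alternatives here. RageHepKO minus HiAD went to -0.02 with the scaling without mitochondrial genes, RageHepKO minus FFD (0.07) to -0.35 on FPKM as deposited, -0.24 with that scaling and -0.03 without FFD R32, and FFD minus chow (-0.14) to 0.06 on FPKM as deposited, 0.14 with sample quality weights, 0.25 without chow R2 and 0.24 without RA19 and chow R2. Counts of the 40 genes called moved as follows, and in parentheses stands, where given, the share of all tested genes called in the same fit. HiAD against FFD (main 5) gave 9 in a fit of the compared groups alone (5.69%), 10 with sample quality weights (9.41%) and 11 without RA19 and chow R2 (7.75%). HiAD against chow (6) gave 12 without RA19 and chow R2 (13.2%). FFD against chow (0) gave 2 with weights (4.43%) and 1 without RA19 and chow R2 (0.599%). PM against HiAD (7) gave 13 in a fit of the groups alone (13.6%), 15 with weights (25.7%) and 13 without RA19 and chow R2 (12.8%), where the main fit called 6.45% of all tested genes. PM against FFD (0) gave 2 in a fit of the groups alone (1.23%), 2 with weights (9.22%) and 1 in a fit without the RageHepKO libraries (0.267%). It gave 2 without RA19 and chow R2, where 95 of all tested genes were higher and 60 lower. RageHepKO against FFD (6) gave 3 with no filter (4.94%), where the main fit called 19.7% of all tested genes. RageHepKO against PM (4) gave 2 with no filter (5.34%), 8 on FPKM as deposited (27.01%), 10 with the scaling without mitochondrial genes (29.8%) and 8 with weights (28.1%). It gave 7 without RA19 and chow R2, where 1391 of all tested genes were higher and 1739 lower (main fit 1011 and 1264). At a threshold of 0.1 it gave 8, and calls over all tested genes were not counted there. The share of the 40 genes in summed FPKM moved to 1.46% and 1.57% for RageHepKO, 3.16% and 2.41% for PM and 2.11% for HiAD when mitochondrial genes were left out of the sum or scaled values were set over the median library sum.

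With each library left out in turn, calls numbered 4 to 8 for HiAD against FFD, 3 to 8 for HiAD against chow and 0 to 0 for FFD against chow. They numbered 11 to 20 for RageHepKO against HiAD and 2 to 8 for RageHepKO against FFD. Calls over all tested genes moved too. Without HiAD B3, 75 were higher and 73 lower for HiAD against FFD and 128 and 88 against chow. RageHepKO against HiAD then had 1247 and 1518. Without chow R2 these were 308 and 249, 516 and 381, and 2065 and 2431. RageHepKO against FFD had 534 and 560 without FFD R31 and 1374 and 1452 without chow R2. Fits without a PM library leave no replicate with PM, so no range is given for comparisons with PM. Chow and HiAD libraries share the numbers 1 to 3, and the deviations of same-numbered libraries had correlations of 0.036, -0.087 and -0.054, so that the numbers were not taken as pairs. With the replicate block 3 of the 40 genes were called in HiAD against chow, all lower, where 0.267% of all tested genes were higher and 0.359% lower.

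The limits are the 2 or 3 mice per group, the unknown depth, the labels of the RageHepKO and HiAD libraries against their Ager values, the mitochondrial share of RA19, and HiAD libraries that differ from all others in chromosome 17 genes. HiAD and RageHepKO libraries also differ from those of PM, FFD and chow in mt-Tg.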

Other observations

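Of 19 acute phase genes, 4 were higher and 0 lower in the libraries labelled RageHepKO than on the HiAD, 1 higher and 2 lower with PM, and 0 higher and 1 lower on the HiAD than on the FFD, as against chow. Over all tested genes 15.7% were higher and 17.7% lower in the libraries labelled RageHepKO than on the HiAD. Saa4, a serum amyloid A that hepatocytes make at all times, averaged 201.8 ± 18.2 scaled FPKM in the libraries labelled RageHepKO (SD, n = 3), 216 ± 80.7 with PM (SD, n = 2), 52.2 ± 15.3 on the HiAD, 118 ± 24.6 on the FFD and 179 ± 51.1 on chow (SD, n = 3 each). It was lower on the HiAD than on the FFD (log2 difference -1.18 ± 0.29 SE, limma adjusted p = 0.046) and chow (log2 difference -1.76 ± 0.29 SE, limma adjusted p = 0.0046), and higher with PM (log2 difference 2.01 ± 0.32 SE, limma adjusted p = 0.0032) and in the libraries labelled RageHepKO (log2 difference 1.96 ± 0.29 SE, limma adjusted p = 0.00077) than on the HiAD. The metallothionein Mt1 was lower with PM, at 3.45 ± 2.13 scaled FPKM (SD, n = 2), against 169.6 ± 109 on the HiAD (SD, n = 3; limma adjusted p = 0.017).

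Of 23 hepatocyte transcription factors and receptors, 2 were higher and 6 lower in the libraries labelled RageHepKO than on the HiAD, and 2 higher and 0 lower with PM. Over all tested genes 15.7% were higher and 17.7% lower in the former comparison, and 3.31% higher and 3.14% lower in the latter. Hnf4a, a main regulator of hepatocyte genes, averaged 52.2 ± 3.95 scaled FPKM in the libraries labelled RageHepKO, against 130.4 ± 13.7 on the HiAD (SD, n = 3 each; log2 difference -1.30 ± 0.24 SE, limma adjusted p = 0.002), and Il6ra, the interleukin-6 receptor, 1.77 ± 0.722, against 10.3 ± 0.650 (log2 difference -2.07 ± 0.40 SE, limma adjusted p = 0.0028). Ghr, the growth hormone receptor, averaged 14.0 ± 0.361 scaled FPKM with PM (SD, n = 2), against 4.74 ± 0.771 on the HiAD (SD, n = 3; log2 difference 1.39 ± 0.20 SE, limma adjusted p = 0.0014), and the HiAD was lower than the FFD, at 9.22 ± 1.21 (SD, n = 3; limma adjusted p = 0.023).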
